A study of Mus musculus with 4 samples.

Results

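CTCF binding was examined at the 10 mouse genes that encode CTCF itself and the cohesin machinery, in CUT&RUN peak lists of mouse embryonic stem cells (mESC). The genes were Ctcf, the ring subunits Smc1a, Smc3 and Rad21, the accessory subunits Stag1 and Stag2, the loader Nipbl, the release factor Wapl and the regulators Pds5a and Pds5b. They were taken by name, as 10 of 20274 protein-coding genes outside chromosome 11 in the mm10 RefSeq gene table, and a summit was assigned to a gene when it lay within 10 kb of the gene span. In CUT&RUN an antibody, here one against CTCF, guides a nuclease to the bound protein, and the released DNA is sequenced. There were 4 genotypes with 1 library each, all of them HoxB Del/Del(i9-13) lines with Ins(CBS5-10). Del(CBS8-10) cells carried Del(CBS8-10) in addition. Inv:Del(CBS7-10) cells carried Inv(CBS5-10) together with Del(CBS7-10). Inv cells carried Inv(CBS5-10) alone, and Ins cells nothing further. The labels do not say whether a line is a single clone. None of the 10 genes lies on chromosome 11, which holds the edited HoxB locus.

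CTCF is a zinc-finger protein that binds a long, directional DNA motif. Cohesin is a ring of SMC1A, SMC3 and RAD21 joined by STAG1 or STAG2. It is loaded with the help of NIPBL, extrudes DNA into loops, is halted where CTCF is bound, and is released by WAPL together with the PDS5 proteins. The peaks described here show where CTCF lay along the genes of these proteins. They do not show how much of any of them was made, and they hold no expression values with which to check the cell type.

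The lists held 74555 peaks in Del(CBS8-10) cells, 99177 in Inv:Del(CBS7-10) cells, 66365 in Inv cells and 93969 in Ins cells. The fragments stacked at a summit (the pileup) and the background were recovered from the deposited values. The commonest background was 0.553 in Del(CBS8-10), 1.33 in Inv:Del(CBS7-10), 0.19 in Inv and 0.858 fragments per position in Ins cells, and it served in place of the read depth, which was not used here. With 1 library per genotype no difference between genotypes could be tested and no p-value is given. The −log10 q and the fold of a peak are the authors' values for that peak within its own list. The percentile is its rank by −log10 q in that list, so that 50% is the middle of the list. Percentiles from lists of different length and depth stand side by side as a description and show no change between genotypes.

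A CTCF summit lay within 10 kb of 9 of the 10 genes in Del(CBS8-10) cells, against 78.8% of protein-coding genes outside chromosome 11. The same count was 9 in Inv:Del(CBS7-10) cells, against 82.2% of all, 9 in Inv cells, against 76.3%, and 10 in Ins cells, against 81.8%. A summit in every library was found at 8 of the 10 genes, where 72.5% of all genes had one. With 10 genes, these counts stand near the background. Rad21 had no summit in Del(CBS8-10) cells, and Smc1a none in Inv:Del(CBS7-10) and Inv cells. The background of the lists moves with the number of peaks they hold, and its part in these gaps was not tested.

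The strongest summit of a gene separated the 10 genes more clearly than its presence. Among the 10 genes, Pds5b and Smc3 ranked highest in every list. Smc1a and Rad21 ranked lowest, except that Pds5a (17.2%) stood below Rad21 (25.7%) in Inv cells. The highest percentile at Pds5b was 99.5% in Del(CBS8-10) cells, 99.2% in Inv:Del(CBS7-10) cells, 94.1% in Inv cells and 99.7% in Ins cells. At Smc3 it was 97.0% in Del(CBS8-10), 98.6% in Inv:Del(CBS7-10), 98.1% in Inv and 98.7% in Ins cells. The Pds5b values were those of a site 7.91 kb outside its span. Its other sites reached at most 89.4% in Del(CBS8-10), 85.4% in Inv:Del(CBS7-10), 90.6% in Inv and 93.5% in Ins cells. Nipbl stood above these in all but Ins cells, at 93.0% in Del(CBS8-10), 86.6% in Inv:Del(CBS7-10), 91.5% in Inv and 93.4% in Ins cells. The Smc3 values of Inv:Del(CBS7-10) and Inv cells were those of a site 3.1 kb past its end. Ctcf had percentiles between 74.6% and 91.0%. At Rad21 no percentile passed 42.2%, and at Smc1a none passed 26.8%. The median over the 10 genes was 73.4% in Del(CBS8-10) cells, 76.1% in Inv:Del(CBS7-10) cells, 77.5% in Inv cells and 82.0% in Ins cells, where the median over all protein-coding genes was 69.4% in Del(CBS8-10), 75.3% in Inv:Del(CBS7-10), 63.0% in Inv and 76.2% in Ins cells. In both sets of medians a gene with no summit counted as 0%, so they mix the presence of a summit with its strength. The strongest summit is a maximum over the window of a gene. The 10 genes were between 30.9 and 361 kb long, and the medians were not matched for gene length. The order within the middle of the set differed between lists: Stag1, for example, stood at 64.3% in Del(CBS8-10) cells and 90.7% in Ins cells, with no replicate against which to set that gap.

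**Figure D1:**
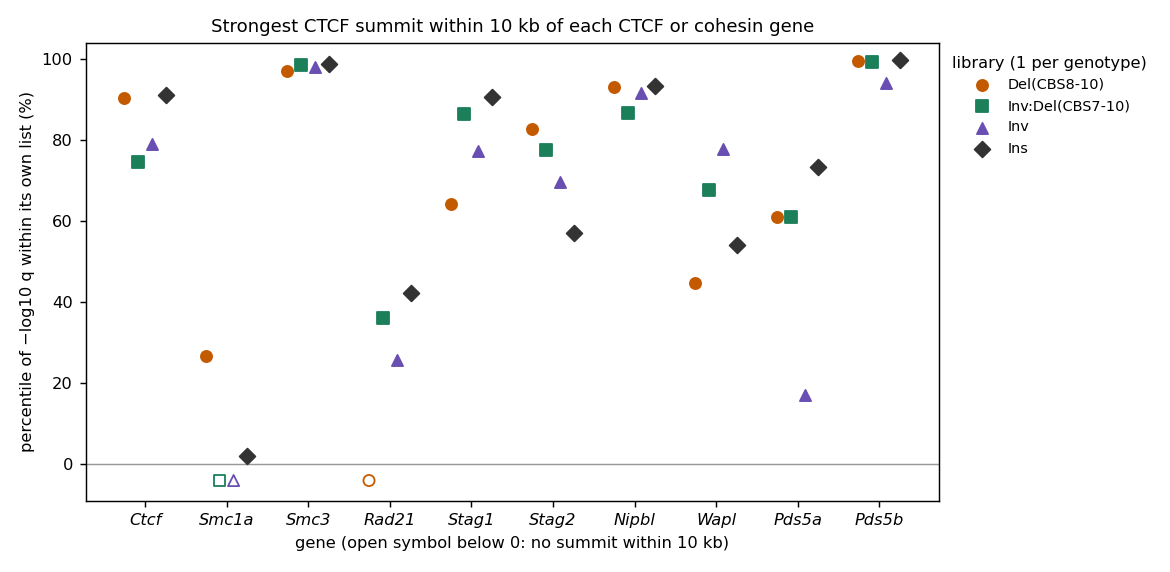
Percentile within its own list (vertical axis, %) of the strongest CTCF summit within 10 kb of each gene (horizontal axis), with 1 symbol per library and open symbols below 0 where a library had no summit. Pds5b and Smc3 lie above 94% in every library, while Rad21 and Smc1a stay at or below 42.2%. The Pds5b values are those of a site 7.91 kb outside its span.

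Each summit of the 4 lists was joined to the next within 100 bp, so that the ends of a chained site can lie farther apart, which gave 101 sites at the 10 genes. Of these, 67 lay in the body of a gene, 10 within 1 kb of a gene start (or of a span end, for genes with no start in the promoter table) and 24 outside the gene span. All 4 libraries had a summit at 22 sites, and 47 sites had one in a single library. A peak can hold several summits, each counted singly. A single-library site can thus be a further summit of a peak shared with other lists. Of all sites outside chromosome 11, 32.8% had a summit in every library and 38.7% in 1 library. The 22 sites found in every library were 12 in gene bodies, 3 at annotated starts, 1 at the lower span end of Stag2 and 6 outside the span. Counted per length, the 10 gene windows held 7.55 sites and 1.64 sites found in every library per 100 kb, where the windows of all protein-coding genes outside chromosome 11 held 6.78 and 2.27.

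**Figure D2:**
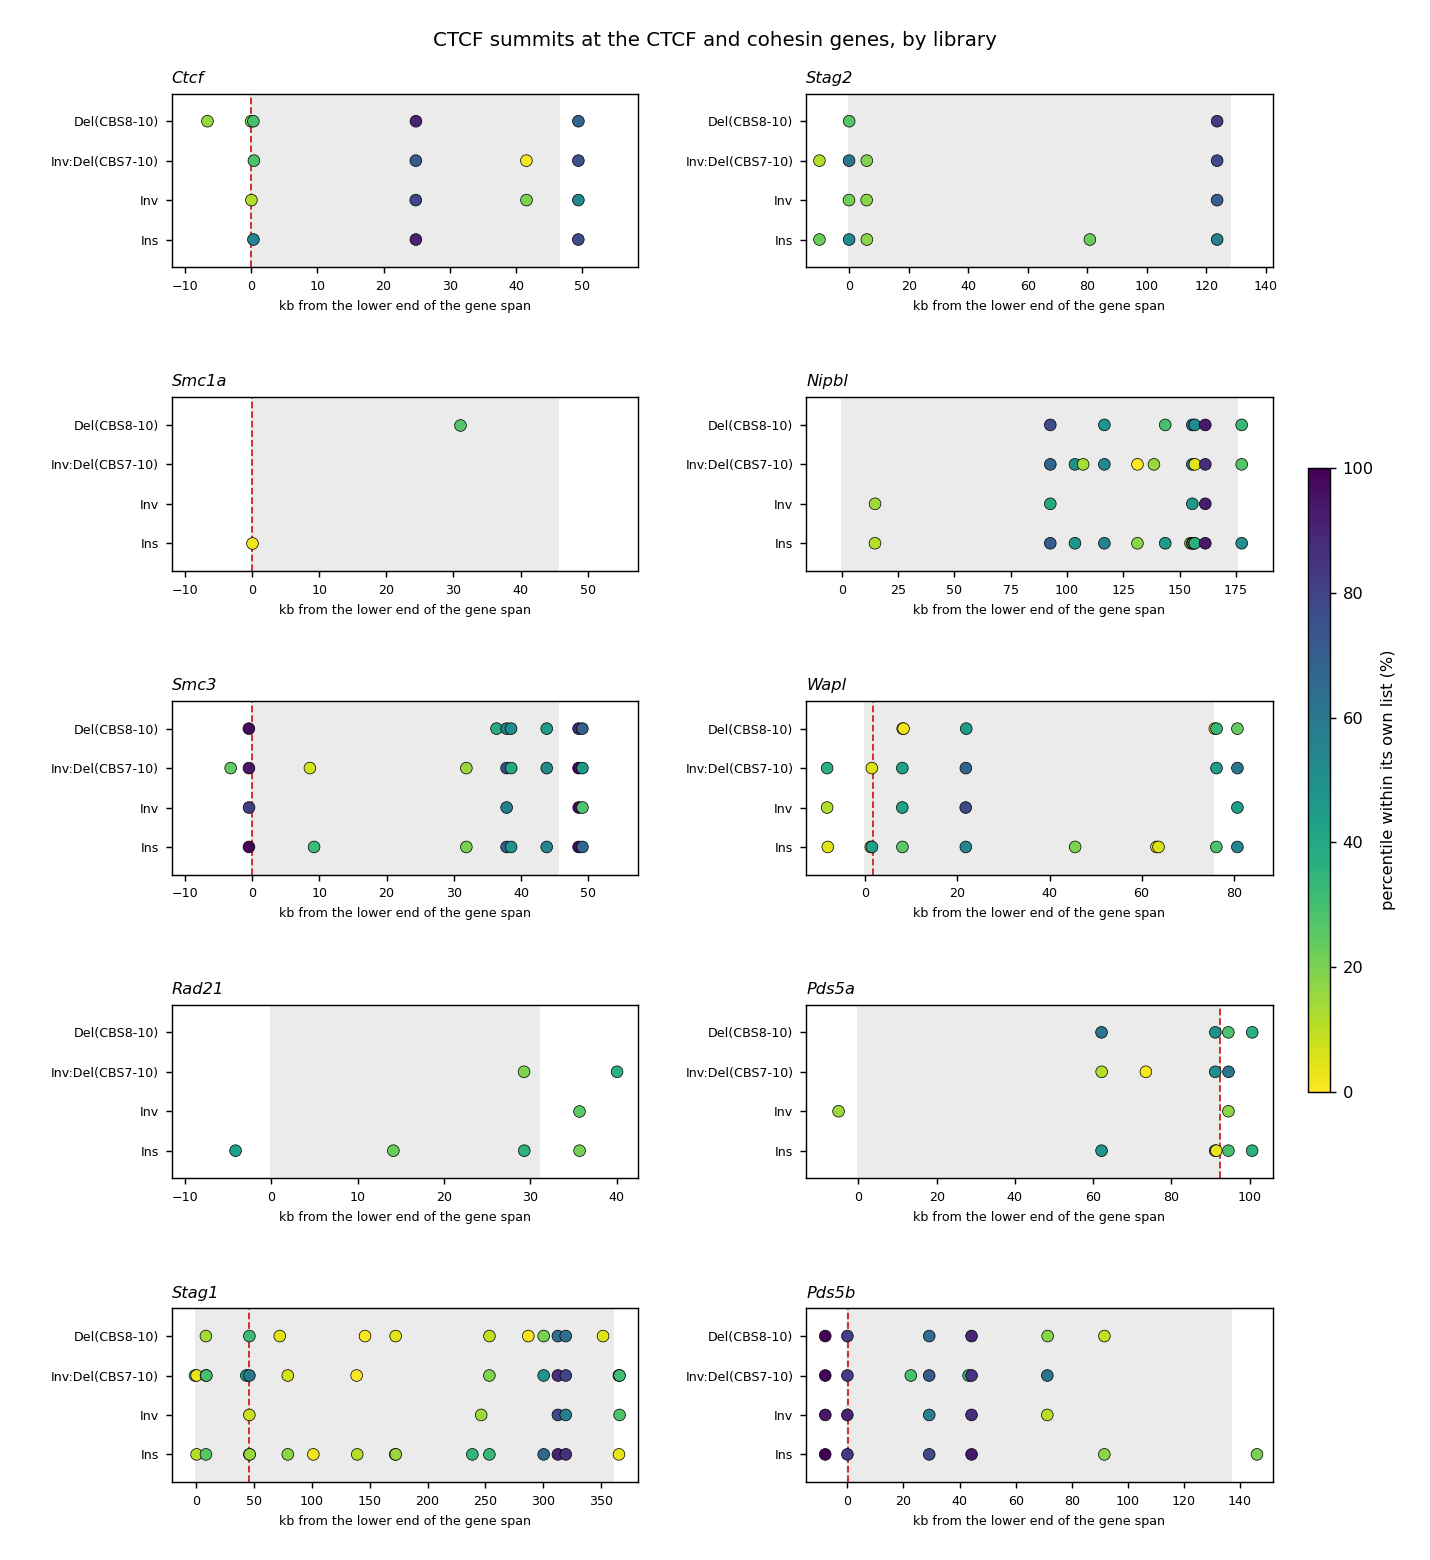
CTCF summits of each library (rows) along the 10 genes, in kb from the lower end of the gene span (horizontal axis); the grey band is the span, the red dashed line the gene start where the promoter table gives one, and the colour the percentile within the list (%). Smc3 and Pds5b carry dark, high-percentile summits at the same places in all 4 rows, while Smc1a and Rad21 carry few and pale ones.

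At the promoters, a summit within 1 kb of the start was found for 4 of the 7 genes with an annotated start in Del(CBS8-10) cells, 5 in Inv:Del(CBS7-10) cells, 4 in Inv cells and 6 in Ins cells. Among all protein-coding genes with a start, the shares were 25.6% in Del(CBS8-10), 35.4% in Inv:Del(CBS7-10), 29.0% in Inv and 37.8% in Ins cells. Ctcf, Smc3, Stag1 and Pds5b, which are 4 of the 7, had one in every library, where 19.5% of all genes did. The promoter sequences of the 7 genes were between 56.8% and 80.4% G or C. Over all promoters the median was 55.2% (quartiles 46.8% and 63.6%), and the shares were not matched for base composition. The promoter table has no entry for Rad21, Stag2 and Nipbl. For these genes both ends of the span were searched, which added a site at the lower end of Stag2.

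The promoter of Pds5b is shown because its summits in all 4 libraries fell beside a match to the core of the CTCF motif. The stretch before the gene span is printed for Pds5b (chr5:150673577-150673712) and, for contrast, for Ctcf (chr8:105636288-105636473), both on the plus strand of mm10 (GRCm38.p6), 5′ to 3′, from RefSeq. Capitals mark AGGGGGC, one of the letter strings searched on both strands. No other member promoter held it.
Pds5b: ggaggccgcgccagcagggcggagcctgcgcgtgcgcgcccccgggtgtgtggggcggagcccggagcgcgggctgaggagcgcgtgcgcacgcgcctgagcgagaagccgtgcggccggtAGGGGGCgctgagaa
Ctcf: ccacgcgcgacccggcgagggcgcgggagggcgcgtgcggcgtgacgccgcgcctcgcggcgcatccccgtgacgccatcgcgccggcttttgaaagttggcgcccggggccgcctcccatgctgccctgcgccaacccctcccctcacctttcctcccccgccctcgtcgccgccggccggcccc

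The middle of the Pds5b match lay at 150673701, 126 bp before the annotated start. The summits lay 19 bp from it in Del(CBS8-10) cells, 20 bp in Inv:Del(CBS7-10) cells, 9 bp in Inv cells and 19 bp in Ins cells. The string AGGGGGC or its reverse complement GCCCCCT was present in the 250 bases before the start of 11.3% of 16220 protein-coding genes. Of the promoters with the string, 20.1% held a summit in those bases in every library, and of those lacking it 7.76%. Where the string and an Ins summit were both present, their median distance was 33 bp, and it was at most 20 bp in 31.2% of 701 promoters. The shorter string CCCTC, also searched on both strands as CCCTC or GAGGG, was present in 62.8% of all promoters, with 5 matches at Ctcf and 0 at Pds5b. A match is a description of these letters and not a test of binding.

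**Figure D3:**
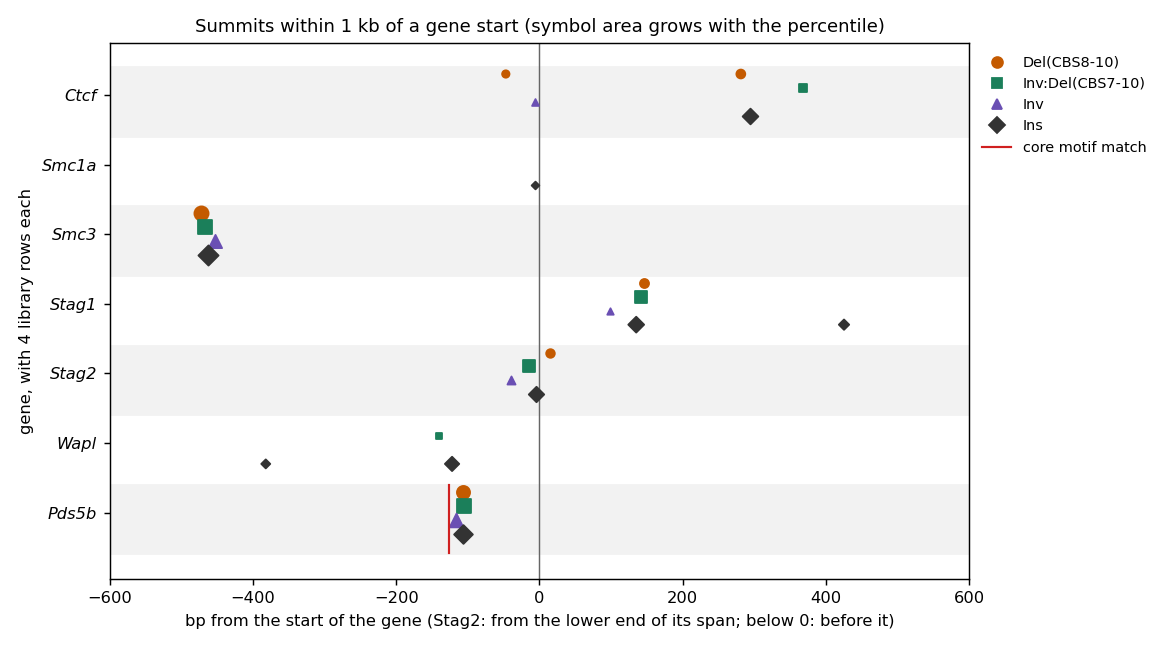
Summits within 1 kb of the gene start, in bp from the start (horizontal axis; for Stag2 from the lower end of its span), with 1 row per library for each gene and a symbol area that grows with the percentile. The Pds5b summits of all 4 libraries sit within 20 bp of the core motif match (red line), while those of Ctcf fall at 2 places.

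Ctcf (chromosome 8, 105636474 to 105682922) encodes the factor that was profiled. It had 6 sites, of which 2 were found in every library. The strongest by mean percentile was inside the gene, at 105661354, 24.8 kb after the start, and had a summit in all 4 libraries. Its −log10 q was 45.7 in Del(CBS8-10) cells, 74.4 in Inv:Del(CBS7-10) cells, 31.1 in Inv cells and 96.1 in Ins cells. The pileups there were 47 in Del(CBS8-10), 71 in Inv:Del(CBS7-10), 25 in Inv and 90 fragments in Ins cells, over backgrounds between 0.52 and 2.88. A second site in every library, the stronger of the pair in Inv:Del(CBS7-10) cells, lay 2.96 kb past the end of the gene, at 105685878 within the lncRNA gene Gm33578, with −log10 q of 22.1 in Del(CBS8-10), 86.4 in Inv:Del(CBS7-10), 14.0 in Inv and 56.2 in Ins cells. The start of Ctcf carried weaker summits at 2 places. One, at 105636832, was 294 bp after the start and had a −log10 q of 6.14 in Del(CBS8-10) cells, 9.65 in Inv:Del(CBS7-10) cells and 21.7 in Ins cells. The other, at 105636491, was at -47 bp from the start and had 4.22 in Del(CBS8-10) cells and 4.5 in Inv cells. Each list thus had a summit at the Ctcf promoter, with percentiles between 11.4% and 54.3%, but no single promoter site was shared by all 4. Of Ins peaks like that at 105636832, 42.8% were also missing from the Inv list. The remaining sites were weak. A summit before the gene at 105629892 was found in Del(CBS8-10) cells alone (4.32). A body site at 105678057 had 2.22 in Inv:Del(CBS7-10) cells and 5.73 in Inv cells.

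Of the ring subunits, Smc3 carried strong CTCF sites at both ends of the gene, and Smc1a and Rad21 only weak ones. Smc3 (chromosome 19, 53600396 to 53645831) encodes a core ATPase arm of the ring. Its promoter site at 53599933, 0.463 kb before the start, had a −log10 q of 66.1 in Del(CBS8-10) cells, 218 in Inv:Del(CBS7-10) cells, 35.0 in Inv cells and 163 in Ins cells. The pileups there were 70 in Del(CBS8-10), 205 in Inv:Del(CBS7-10), 35 in Inv and 154 fragments in Ins cells over backgrounds of 2.92 in Del(CBS8-10), 6.72 in Inv:Del(CBS7-10), 1.28 in Inv and 4.98 in Ins cells. The site past the other end, 3.1 kb beyond the gene at 53648934, had a −log10 q of 44.2 in Del(CBS8-10) cells, 319 in Inv:Del(CBS7-10) cells, 79.6 in Inv cells and 134 in Ins cells. A neighbour at 53649495 was also bound in every list, with values of 22.8 in Del(CBS8-10), 19.7 in Inv:Del(CBS7-10), 6.46 in Inv and 38.2 in Ins cells. They lie 12.1 and 11.5 kb from Rbm20, the nearest other gene of the table. Which of the Smc3 ends ranked higher differed between lists: the promoter site did in Del(CBS8-10) cells (97.0% against 89.4%) and the Ins library (98.7% against 97.0%), and the site past the end did in Inv:Del(CBS7-10) cells (98.6% against 93.9%) and the Inv library (98.1% against 82.3%). Inside the gene, the site at 53638232 was bound in every list, and those at 53638892 and 53644200 in all but the Inv library.

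Smc1a (chromosome X, 152016428 to 152061973) encodes the partner ATPase arm of SMC3. It had 2 sites, each in a single library. In the Del(CBS8-10) library a summit in the gene body at 152047437 had a −log10 q of 5.71, with 8 fragments over a background of 0.553. In the Ins library a summit 0.006 kb before the start, at 152016422, had a −log10 q of 2.49 with 6 fragments over 0.858, and stood at the 2.12% point of its list. The span of Ribc1 also covers this summit. Peaks of such strength are often not found again. Of 2340 Ins peaks outside chromosome 11 with a −log10 q within 20% of that value, 89.7% were not found in the Del(CBS8-10) list, 71.5% not in the Inv:Del(CBS7-10) list and 88.4% not in the Inv list. The median percentile of all chromosome X peaks was between 39.4% and 47.0% in the 4 lists, and the part of the chromosome in the low values at Smc1a was not tested.

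Rad21 (chromosome 15, 51962604 to 51993538) encodes the kleisin that closes the ring. It had 5 sites, none of them in more than 2 libraries. The Ins library had 4 of them, with the highest −log10 q, 12.9, at 51958476, 4.13 kb beyond the lower end of the gene and in that library alone. In the Inv:Del(CBS7-10) library the strongest, also 12.9, was at 52002622, 9.08 kb beyond the higher end and again in that library alone. The single summit of the Inv library was at 51998252, with a −log10 q of 6.39. It shared this site with the Ins library, where the value was 6.35. Inside the gene, at 51991885, the Inv:Del(CBS7-10) library had 6.65 and the Ins library 9.92. The Del(CBS8-10) library had none of these. Of Ins peaks with a −log10 q like that of the strongest Rad21 summit, 44.1% (3807 of 8629) were also missing in the Del(CBS8-10) list, and for the other Ins summits of Rad21 the share was between 56.1% and 72.9%.

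The accessory subunits each carried CTCF sites found in every library. STAG1 and STAG2 are alternative subunits that contact CTCF. Stag1 (chromosome 9, 100597709 to 100958544) is the longest of the genes, at 361 kb, and had 27 sites. Of these, 3 were found in every library and 17 in a single one. The strongest lay 267 kb after the start, at 100910521, with a −log10 q of 19.7 in Del(CBS8-10) cells, 152 in Inv:Del(CBS7-10) cells, 29.4 in Inv cells and 94.7 in Ins cells. Its pileups were 22 in Del(CBS8-10), 140 in Inv:Del(CBS7-10), 27 in Inv and 89 fragments in Ins cells. A neighbour at 100917314 had −log10 q of 18.8 in Del(CBS8-10), 111 in Inv:Del(CBS7-10), 15.9 in Inv and 78.9 in Ins cells. The third site in every list was at the promoter, at 100643589, 141 bp after the start, with 6.58 in Del(CBS8-10), 40.7 in Inv:Del(CBS7-10), 3.91 in Inv and 23.0 in Ins cells. A site at 100898242 had a −log10 q of 4.61 in Del(CBS8-10) cells, 22.7 in Inv:Del(CBS7-10) cells and 37.0 in Ins cells and was missing from the Inv list, as were 19.6% (1505 of 7687) of Ins peaks of like strength. A further promoter summit, 425 bp after the start, was found in Ins cells alone (5.25). Both Ins promoter summits had a peak width of 756 bp, so it can be a second summit of the peak at the site in every list.

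Stag2 (chromosome X, 42149297 to 42277186) had 5 sites, of which 2 were in every library. The one near the higher end of the span, at 42272944, had a −log10 q of 35.0 in Del(CBS8-10) cells, 100 in Inv:Del(CBS7-10) cells, 22.8 in Inv cells and 24.7 in Ins cells. Its pileups were 31 in Del(CBS8-10), 90 in Inv:Del(CBS7-10), 19 in Inv and 24 fragments in Ins cells, so Ins cells had fewer fragments here than Del(CBS8-10) cells, while their genome background was 0.858 against 0.553. The second lay at the lower end of the span, 14 bp outside it at 42149283, with −log10 q of 5.71 in Del(CBS8-10), 42.2 in Inv:Del(CBS7-10), 6.2 in Inv and 19.4 in Ins cells. The remaining sites of Stag2 had values of at most 6.65 in any list.

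Nipbl, the loader, had CTCF sites beyond the midpoint of its span (chromosome 15, 8289824 to 8465315), except for a weak one at 8304560. The strongest of its 15 sites was at 8451238, inside the span, with a −log10 q of 51.4 in Del(CBS8-10) cells, 153 in Inv:Del(CBS7-10) cells, 50.4 in Inv cells and 107 in Ins cells. The pileups were 60 in Del(CBS8-10), 156 in Inv:Del(CBS7-10), 42 in Inv and 116 fragments in Ins cells over backgrounds of 3.1 in Del(CBS8-10), 6.18 in Inv:Del(CBS7-10), 0.96 in Inv and 5.24 in Ins cells. A site at 8445480, within the overlapping gene LOC102634078, was also bound in every list, with 18.5 in Del(CBS8-10), 41.6 in Inv:Del(CBS7-10), 11.3 in Inv and 50.6 in Ins cells, as was one at 8382405, with 29.5 in Del(CBS8-10), 60.3 in Inv:Del(CBS7-10), 9.37 in Inv and 44.8 in Ins cells. The site at 8406412 had 11.2 in Del(CBS8-10), 27.9 in Inv:Del(CBS7-10) and 23.3 in Ins cells and none in Inv cells, where 39.7% of Ins peaks of like strength were missing. No Nipbl summit lay within 1 kb of either end of the span. The span joins several transcripts, and starts inside it were not used.

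Wapl (chromosome 14, 34672379 to 34747983), which encodes the factor that takes cohesin off DNA, had 13 sites, none above the 77.7% point of a list. The strongest, in the body at 34694169, had a −log10 q of 10.2 in Del(CBS8-10) cells, 59.8 in Inv:Del(CBS7-10) cells, 29.7 in Inv cells and 21.4 in Ins cells. Its summits were chained, with that of Del(CBS8-10) cells at 34694284. A site 5.2 kb past the end, at 34753186, had 5.27 in Del(CBS8-10), 42.4 in Inv:Del(CBS7-10), 10.6 in Inv and 21.4 in Ins cells, and one in the body at 34680403 had 5.21 in Del(CBS8-10), 17.1 in Inv:Del(CBS7-10), 10.0 in Inv and 7.07 in Ins cells. At the promoter, the site at -122 bp from the start (34673806) had 3.68 in Inv:Del(CBS7-10) cells and 13.2 in Ins cells and was missing from the others. At -382 bp the Ins library alone had a summit (3.91). Both Ins summits had a peak width of 510 bp, so the one at -382 bp can be a second summit of the same peak. Of Ins peaks like that at -122 bp, 43.2% were not found in the Del(CBS8-10) list.

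PDS5A and PDS5B are related HEAT-repeat proteins that bind cohesin and act in both its release and its stabilisation, and their genes lie on the same chromosome. Pds5a (chromosome 5, 65605719 to 65698236) had a single site in every list, 2.08 kb before the start at 65700318, with −log10 q of 5.93 in Del(CBS8-10) cells, 41.7 in Inv:Del(CBS7-10) cells, 5.25 in Inv cells and 8.06 in Ins cells. Its strongest site by mean percentile lay just inside the gene, 1317 bp after the start at 65696919, with 11.9 in Del(CBS8-10) cells, 25.8 in Inv:Del(CBS7-10) cells and 49.1 in Ins cells, and no summit in Inv cells. There the Ins pileup was 61 fragments over a background of 3.68, and 9.54% (786 of 8236, exact 95% interval 8.92 to 10.2) of Ins peaks of like strength had no summit in the Inv list. Within 3.38 kb of it the Inv list had no summit. At 65667856, in the body, the Del(CBS8-10) library had 17.7 and the Ins library 16.4, against 4.75 in Inv:Del(CBS7-10) cells.

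Pds5b (chromosome 5, 150673713 to 150810669) held the strongest CTCF site of all 10 genes in each list except that of the Inv library, where the site past the end of Smc3 was higher. It lay before the gene at 150665807, 7.91 kb from the span and 0.059 kb outside the neighbouring gene N4bp2l2. Its −log10 q was 110 in Del(CBS8-10) cells, 358 in Inv:Del(CBS7-10) cells, 57.7 in Inv cells and 251 in Ins cells. The pileups were 110 in Del(CBS8-10), 334 in Inv:Del(CBS7-10), 54 in Inv and 244 fragments in Ins cells over backgrounds of 4.0 in Del(CBS8-10), 10.6 in Inv:Del(CBS7-10), 1.68 in Inv and 8.56 in Ins cells. The promoter site with the motif match had −log10 q of 33.3 in Del(CBS8-10), 127 in Inv:Del(CBS7-10), 48.3 in Inv and 71.9 in Ins cells. The body added 2 sites found in every list, at 150717999 with 44.2 in Del(CBS8-10), 145 in Inv:Del(CBS7-10), 40.6 in Inv and 108 in Ins cells, and at 150702887 with 19.7 in Del(CBS8-10), 77.6 in Inv:Del(CBS7-10), 15.5 in Inv and 59.9 in Ins cells. All 4 of these sites lay above the 57% point of every list. A further position was chosen after its values were seen. At 150745005 the Inv:Del(CBS7-10) library had a −log10 q of 44.0 with 45 fragments over a background of 1.82, the Inv library had 4.34 with 5 fragments over 0.24, and the Ins library had no summit within 20.3 kb. Of Inv:Del(CBS7-10) peaks of like strength, 7.07% (479 of 6771, interval 6.47 to 7.71) had no Ins summit. The Del(CBS8-10) library had a weak summit 116 bp away (4.53).

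Sites held by a single library with a −log10 q of at least 10 numbered 4. Of these, 3 were in Inv:Del(CBS7-10) cells, whose list has the highest background: the Rad21 site at 52002622, one at 100640931 in Stag1 (17.7) and one at 150716945 in Pds5b (11.1). The Rad21 site at 51958476 was in Ins cells. Of Inv:Del(CBS7-10) peaks of like strength, between 29.6% and 42.6% had no Ins summit. The sites held by one list alone reached at most 8.14 in Del(CBS8-10) cells and 4.9 in Inv cells.

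Set against each other list by list, the Ins summits of the 10 genes were found again in larger shares where they were strong. An exception in the Inv list was the class of −log10 q between 10 and 20 (1 of 10, interval 0.253% to 44.5%). It lay below the class between 5 and 10 (4 of 22). Of all Ins summits, the Inv list held 43.1% of the class between 10 and 20 and 24.1% of that between 5 and 10. Of 70 Ins summits, 37 (52.9%, exact 95% interval 40.6 to 64.9) were matched within 100 bp in the Del(CBS8-10) list, where 64.9% of all Ins summits outside chromosome 11 were. In the Inv:Del(CBS7-10) list 44 were found (62.9%, 50.5 to 74.1), against 76.2% of all, and in the Inv list 25 (35.7%, 24.6 to 48.1), against 56.0% of all. Intervals cover counting error only and take summits of the same gene, also those of the same peak, as independent. Weak summits, with a −log10 q under 10, made up 51.4% (39.2 to 63.6) of the Ins summits at the 10 genes, against 35.9% of all. In the other lists that share was also higher than the share of all, but its interval held it. It was 53.1% (38.3 to 67.5) against 44.1% in Del(CBS8-10) cells. In Inv:Del(CBS7-10) cells it was 42.6% (30.0 to 55.9) against 30.5%, and in Inv cells 46.9% (29.1 to 65.3) against 42.4%. Within classes of like strength, each of 15 intervals for the Ins summits held the share of all Ins summits. With 10 to 22 summits in a class, these intervals were wide. In the Inv list the shares at the 10 genes lay below those of all in every class under 50. From the weakest class up they were 7.14%, 18.2%, 10.0% and 58.3%, against 13.9%, 24.1%, 43.1% and 74.6%. The part of strength in the lower shares was not tested. All 12 Ins summits of the 10 genes with a −log10 q of at least 50 were found in each of the other lists. Over all Ins summits of that strength the recovered shares were 99.6% for Del(CBS8-10), 99.6% for Inv:Del(CBS7-10) and 97.6% for Inv cells. In the class between 20 and 50, all 12 were found in the Del(CBS8-10) and Inv:Del(CBS7-10) lists and 7 in the Inv list (58.3%), against 74.6% of all Ins summits. The recovered shares of all Ins summits in this class were 92.2% for Del(CBS8-10) and 96.6% for Inv:Del(CBS7-10) cells.

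Between the lines with the inversion the shares differed by direction. Of 61 summits in Inv:Del(CBS7-10) cells, 27 (44.3%, 31.5 to 57.6) were found in the Inv list, against 56.3% of all, and of 32 Inv summits 27 (84.4%, 67.2 to 94.7) were found in the Inv:Del(CBS7-10) list, against 85.8%. Read toward the Ins list, 37 of 49 Del(CBS8-10) summits were found (75.5%, against 81.4% of all), 44 of 61 Inv:Del(CBS7-10) summits (72.1%, against 72.0%) and 25 of 32 Inv summits (78.1%, against 80.7%). By class, over all the directions of this paragraph, a single interval lay apart from the share of all, with no correction for the number of intervals read. It was that of the Inv:Del(CBS7-10) summits with a −log10 q under 5. Of these, 8 of 13 (61.5%, 31.6 to 86.1) were found in the Ins list, against 25.5% of all.

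**Figure D4:**
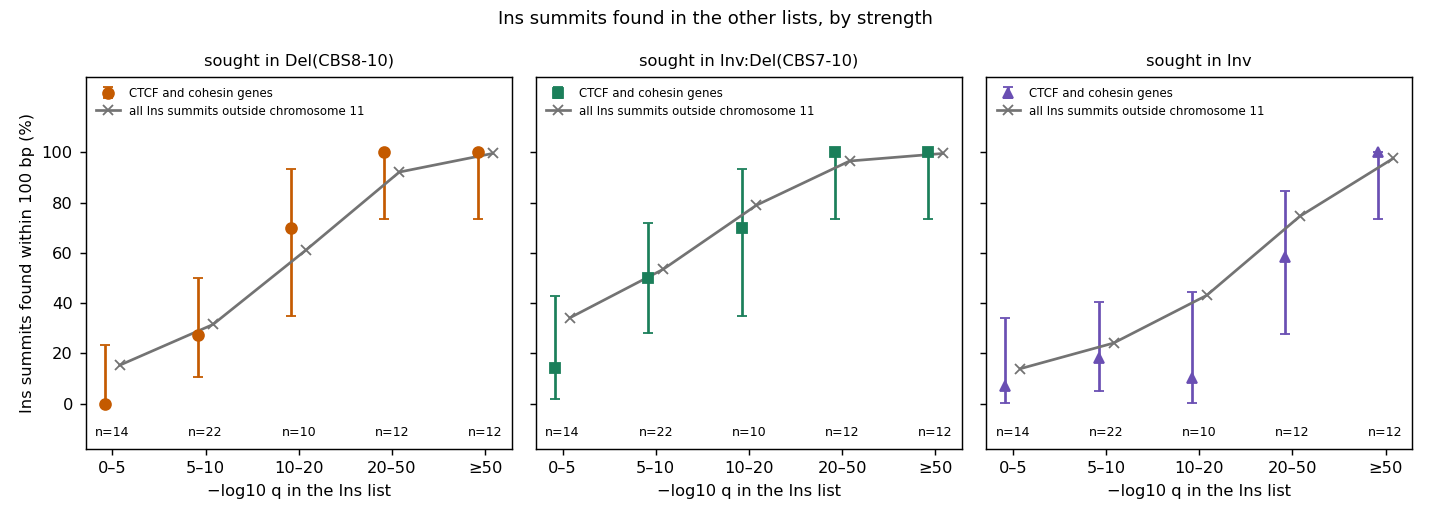
Share of Ins summits with a summit within 100 bp in each of the other lists (vertical axis, %), by the −log10 q in the Ins list (horizontal axis). Coloured points are the summits at the 10 genes with exact 95% intervals and their number, grey crosses all Ins summits outside chromosome 11; each interval holds the grey value.

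Other genes of CTCF and the SMC complexes were read in the same way, from a list of 37 genes of which 3 lie on chromosome 11 and were not counted. A summit in every library was found at 30 of 34 (88.2%), against 72.5% of all protein-coding genes, and the median strongest percentile in Ins cells was 81.2%, against 76.2% over all genes. These values were not matched for gene length either, and in the medians a gene with no summit counted as 0%. By group, 9 of 9 loader and regulator genes, 6 of 6 genes of the CTCF paralog and partners, 7 of 8 condensin genes, 5 of 7 genes of SMC5/6 and related proteins and 3 of 4 meiotic cohesin genes had one in every list. The strongest of these genes in Ins cells by −log10 q were Nsmce1 (128) and Nsmce2 (125), subunits of the SMC5/6 complex, and Zfp143 (127), a zinc-finger transcription factor. Among the genes with a summit in some lists, Smc5 had 38.5 in Del(CBS8-10) cells, 49.1 in Inv:Del(CBS7-10) cells and 50.6 in Ins cells, and none in Inv cells. Ncapg2, a condensin subunit, had 4.56 in Del(CBS8-10), 16.6 in Inv:Del(CBS7-10) and 16.4 in Ins cells and also none in Inv cells. Rad21l, the meiotic counterpart of Rad21, had 4.42 in Del(CBS8-10) cells and 4.38 in Ins cells alone, and Nsmce3 had 7.37 in Ins cells alone.

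For each gene, the protein-coding gene with the most similar percentiles of its strongest summit over the 4 libraries was looked up, as the smallest Euclidean distance in percentile points. A library with no summit counted as 0%. The nearest pair was Smc3 with Slc28a1 (0.313), followed by Pds5b with Stoml1 (0.478), Stag1 with Gatc (1.29), Smc1a with Zfp442 (1.3), Nipbl with Zhx2 (1.68) and Ctcf with Ell3 (1.69). Farther apart were Rad21 and BC005537 (2.19), which also lacks a summit in Del(CBS8-10) cells, Wapl and Pramel42 (4.59), Pds5a and Ap1ar (4.95) and Stag2 and Emsy (6.86). The search ran over 20274 genes and 4 libraries, and it carries no test.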

How the data were processed

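CTCF CUT&RUN peak lists of 4 mESC lines were used, 1 library per genotype. Per the submitters' processing notes, MACS2 2.2.7.1, bedtools 2.30.0, Picard, Bowtie2 2.4.5 and cutadapt 4.1 were used with the build mm10. Not given in the sources used here: their settings, and any control library. In the deposited lists the score is the −log10 q multiplied by 10, and the fold (a ratio of summit to local background), the −log10 q-value and the −log10 p-value are those of the authors' peak caller. Their genome holds a second copy of chromosome 11, and both copies were left out of all background counts.

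From these lists, summits (start plus offset, counted from 1) within 10 kb of a gene of the GRCm38.p6 RefSeq table were taken with pandas 2.3.3, NumPy 2.4.6 and SciPy 1.17.1 in Python 3.11.15, and plots were drawn with Matplotlib 3.10.9. Neighbouring summits within 100 bp were chained into sites, placed at the summit with the highest percentile. Promoter sites lay within 1 kb of the start in the RefSeq promoter table, which has 7 of the 10 genes. Like peaks lay outside chromosome 11 and had a −log10 q within 20% of that of the missing summit. Pileup and background were recovered from fold and −log10 p (tolerance 0.001, 1 added to each), for at least 99.6% of the peaks of each list. Joining, matching and recovery were tested on simulated data. No peak was filtered out here for lying in a region of unspecific signal.

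The members and lists were chosen with earlier results of these data known. All 10 genes are named, with the strongest site of each by mean percentile, each site within 1 kb of a start and each single-library site with a −log10 q of at least 10. Of the wider list, the 3 genes with the highest −log10 q in Ins cells and those with a summit in only some of the libraries are named, as is the 1 gene nearest to each member in its percentiles. Further sites, such as those with a summit in all 4 libraries, were picked with their values in view.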

Additional observations from a re-analysis of the deposited data

How the results depend on the processing

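No paired analysis was possible because each genotype has a single library. With no replicates, no result has a spread, and the genome background, in place of the depth, was 7.0-fold higher in the Inv:Del(CBS7-10) list than in the Inv list; its part in the results was not tested. Keeping peaks with a −log10 q of 10 or more, the sites at the 10 genes numbered 43 in place of 101 and promoter sites 6 in place of 10. The Ins summits searched for were 34 in place of 70. Of these, the Del(CBS8-10) list held 23 in place of 37, the Inv:Del(CBS7-10) list 26 in place of 44 and the Inv list 16 in place of 25. The share of all Ins summits found with this cutoff was not computed. With the 20000 strongest peaks of each list, genes with a summit numbered 5 in Del(CBS8-10), 4 in Inv:Del(CBS7-10), 6 in Inv and 5 in Ins cells. At 3 genes every library had one. The share of all protein-coding genes at this setting was not computed, so these counts have no background beside them. That setting left 12 sites, of which 6 were in every library and 2 at promoters. It also cut the Ins summits to be searched for to 9. Matches for 7 of these 9 were present in the Del(CBS8-10) list, for 7 in the Inv:Del(CBS7-10) list and for 8 in the Inv list. The Inv list, which held the fewest when all 70 were searched for, here held the most, but 9 summits are few. Without the Inv library, 34 sites were found in every remaining list, in place of 22. Other matching distances, overlaps, gene distances of 2 or 25 kb and promoter widths moved no count by more than 1.5 times, nor did gene starts taken from the span, a choice made after seeing the data. The ranks of the strongest summits were not recomputed at these settings.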
